A study of Mus musculus with 6 samples.

Results

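The mitochondrial ribosomal protein genes were the rows of the deposited gene table whose single symbol was Mrpl or Mrps followed by a number. The rule found 70 of 36699 rows, 44 of them of the large subunit (Mrpl) and 26 of the small subunit (Mrps), and used no measured value. Of these, 69 were among the 18537 rows that the authors tested, and Mrpl2 was not. The RNA came from A2Lox.cre cells, a mouse embryonic stem cell line with a site for doxycycline-inducible transgenes, collected on day 3 of embryoid body culture after removal from fibroblast feeder cells. One group of 3 libraries had no doxycycline. In the other group of 3, doxycycline in the final 24 hours switched on a Flag-tagged copy of the zinc-finger transcription factor Sp5. All 6 libraries shared the line and the day. Whether replicates were separate cultures is not labelled, so p-values may measure technical spread only. The groups differ in the drug and in Sp5 at the same time, and the effects of both cannot be told apart.

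Mitochondria translate the few proteins encoded by their own DNA on ribosomes that descend from those of bacteria. The ribosomal RNA is mitochondrial, whereas every mitochondrial ribosomal protein is encoded in the nucleus, made in the cytosol and imported. The small subunit reads the messenger RNA, and the large subunit joins the amino acids. Part of the proteins have bacterial counterparts, and the rest are found in mitochondria only. Tetracyclines such as doxycycline bind the small subunit of bacterial ribosomes and also inhibit translation in mitochondria, which is why the genes are of interest in a design that uses doxycycline as the inducer.

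Values are FPKM, fragment counts scaled to transcript length and to the size of the library, so levels can be compared between genes. How the authors scaled library size is not given. The table gives 1 value for the 3 libraries of a group, and no SD or overlap of libraries can be given. "Rose" and "fell" are used only of genes with q under 0.05 (adjusted over all tested rows) in the authors' deposited table. The inducible gene Sp5 stood at 0.769 FPKM without doxycycline and 126 FPKM with it. The 9 stem cell markers examined lay between 21.7 and 1058 FPKM, Pou5f1 being the highest. Of these, Nanog (2.54-fold), Tdgf1 (1.46-fold) and Zfp42 rose, Utf1 (2.64-fold), Dppa4 and Lin28a fell, and 3 were not called. The 11 fibroblast markers lay between 0.0267 and 9.34 FPKM, with sums of 21.4 and 21.2 FPKM without and with doxycycline. Of the 10 that were tested, Col1a1 rose (3.99-fold, from 1.11 to 4.43 FPKM). Dcn (1.49-fold) and Thy1 (1.45-fold, from 9.34 to 6.42 FPKM) fell, and 7 were not called. The near-equal sums thus hold changes in both directions. The part of either marker list in the results was not tested. In such bulk RNA, fewer cells of a type and less RNA per cell cannot be told apart.

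Promoter windows of 4 of the genes are shown to set the sequence beside the values that follow. They run from 250 bases before to 50 bases after the start in RefSeq (GRCm38.p6), 5′ to 3′ in the direction of the gene. Capitals mark matches, on either strand, to 5 motifs: the GC box GGGCGG that Sp factors bind, the ETS core CCGGAA, GCATGCGC as a piece of the NRF1 site, AAGATGGC as a piece of the YY1 site, and the TATA box TATAAA. A match is a description and not a shown binding site. Mrps18c (chr5:100798509-100798808, plus strand) is the gene that fell most. Mrpl20 (chr4:155802628-155802927, plus strand) is the large subunit gene that fell most, and its window held none of the 5 motifs. Mrpl32 (chr13:14612988-14613287, minus strand) fell and has 4 matches to the NRF1 piece, 2 of which overlap each other. Mrpl42 (chr10:95501900-95502199, minus strand) is the most abundant of the genes and was not called.
Mrps18c: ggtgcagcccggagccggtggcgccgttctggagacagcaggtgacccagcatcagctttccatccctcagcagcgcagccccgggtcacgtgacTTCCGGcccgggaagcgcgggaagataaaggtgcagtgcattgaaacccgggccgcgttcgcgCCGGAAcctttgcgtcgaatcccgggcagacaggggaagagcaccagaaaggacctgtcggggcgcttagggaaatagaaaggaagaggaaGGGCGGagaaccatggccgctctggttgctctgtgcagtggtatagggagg
Mrpl20: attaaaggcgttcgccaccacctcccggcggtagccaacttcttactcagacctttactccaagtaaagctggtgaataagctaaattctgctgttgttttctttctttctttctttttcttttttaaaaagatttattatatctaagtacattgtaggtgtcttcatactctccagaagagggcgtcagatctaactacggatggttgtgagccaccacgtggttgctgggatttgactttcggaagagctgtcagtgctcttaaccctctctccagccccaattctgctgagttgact
Mrpl32: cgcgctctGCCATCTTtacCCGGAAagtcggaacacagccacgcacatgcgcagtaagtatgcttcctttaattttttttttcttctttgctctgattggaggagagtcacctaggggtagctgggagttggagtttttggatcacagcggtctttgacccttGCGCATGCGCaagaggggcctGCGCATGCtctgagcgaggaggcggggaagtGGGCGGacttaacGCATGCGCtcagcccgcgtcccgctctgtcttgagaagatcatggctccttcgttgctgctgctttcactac
Mrpl42: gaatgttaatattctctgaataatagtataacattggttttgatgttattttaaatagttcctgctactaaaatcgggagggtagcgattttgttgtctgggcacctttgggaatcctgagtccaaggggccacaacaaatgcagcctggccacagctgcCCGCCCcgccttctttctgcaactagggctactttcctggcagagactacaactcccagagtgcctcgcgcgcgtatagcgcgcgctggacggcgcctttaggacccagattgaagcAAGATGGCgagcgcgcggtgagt

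The mitochondrial ribosomal protein genes were abundant and moved little. By the test in the authors' deposited table, 7 of the 69 genes with a test fell, none rose and the other 62 had no call. The falls were small, from 1.13-fold for Mrps2 to 1.28-fold for Mrps18c. The called share was 10.1%, against 23.2% of all tested rows. For falls alone it was 10.1% against 12.7%, a share near the background, and for rises it was 0% against 10.5%. Among the 4111 tested rows with a mean level in the range of these genes, 7.10% rose and 18.2% fell. No gene of either subunit reached a 1.5-fold difference in either direction, which 20.6% of all tested rows with a fold and 4.66% of those in the same level range did.

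**Figure D1:**
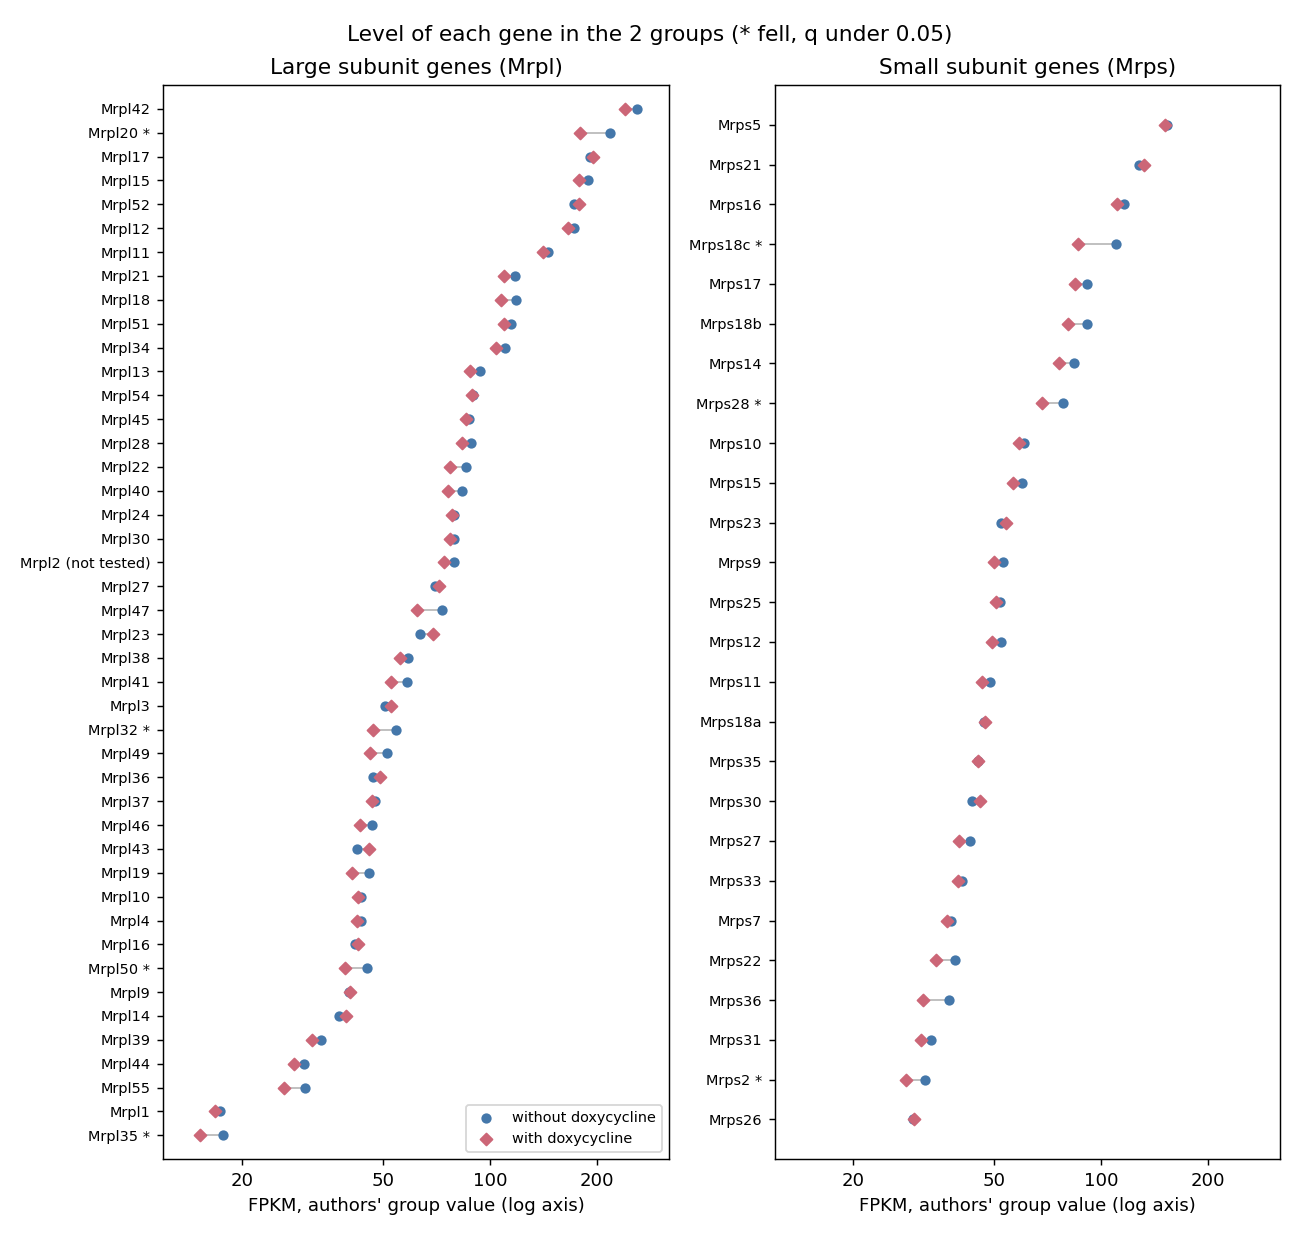
FPKM of each of the 70 mitochondrial ribosomal protein genes without doxycycline (blue circles) and with it (red diamonds), ordered by mean level within the large (left) and small (right) subunit, on a log axis. Each point is the authors' single value of a group of 3 libraries and has no error bar; the pairs lie close together, and stars mark the 7 genes that fell.

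Levels of the large subunit genes spanned 15.2-fold between genes. Their median was 63.7 FPKM without doxycycline and 62.3 FPKM with it. Mrpl42, a protein without a bacterial counterpart, was the most abundant at 260 and 240 FPKM without and with doxycycline (q = 0.214 in the authors' deposited table). Mrpl20 followed at 218 and 180 FPKM, and Mrpl17 stood at 192 and 195 FPKM (q = 0.948 for Mrpl17 in the authors' deposited table). Mrpl35, at 17.7 and 15.2 FPKM, and Mrpl1, at 17.4 and 16.8 FPKM, were the lowest, followed by Mrpl55 at 30.2 and 26.3 FPKM. The factor between the highest and lowest gene was thus far larger than any difference between the groups.

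Small subunit genes spanned a narrower range of 5.16-fold. Their median was 52.1 FPKM without doxycycline and 49.4 FPKM with it. Mrps5 was the most abundant at 153 and 151 FPKM, followed by Mrps21 at 128 and 132 FPKM and Mrps16 at 116 and 110 FPKM, and none of these was called (q = 0.963, 0.870 and 0.587 in the authors' deposited table). Mrps26 was the lowest at 29.4 and 29.6 FPKM, followed by Mrps2 at 31.9 and 28.1 FPKM and Mrps31 at 33.2 and 31.0 FPKM. The median level of the genes of both subunits was above 91.1% of the tested rows. Over the 69 tested genes, the level had almost no relation to the log2 fold change (Spearman's rho 0.020, a description over genes that share the same libraries).

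Of the 43 tested large subunit genes, 4 fell (9.30%), and each of them lies at a locus shared with no other row. Mrpl20, the counterpart of bacterial L20, went from 218 FPKM without doxycycline to 180 FPKM with it (1.21-fold lower, log2 fold change -0.28, q = 0.00172 in the authors' deposited table). The row covers chromosome 4, positions 155177645 to 155183885 of mm9. Mrpl35, the counterpart of bacterial L35, went from 17.7 to 15.2 FPKM (1.17-fold lower, q = 0.00557 in the authors' deposited table; chromosome 6, 71762997 to 71773804). Mrpl35 is the gene of the lowest mean level in the subunit and Mrpl20 that of the second highest.

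Mrpl50, a protein found in mitochondria only, went from 45.1 to 39.0 FPKM (1.16-fold lower, q = 0.00699 in the authors' deposited table; chromosome 4, 49525468 to 49533965). Mrpl32, the counterpart of bacterial L32, went from 54.3 to 47.0 FPKM (1.15-fold lower, q = 0.0261 in the authors' deposited table; chromosome 13, 14702568 to 14705304). Its precursor is cut after import by a protease of the inner mitochondrial membrane. A subunit of that protease, Afg3l2 (named after its values were seen), had 26.4 and 24.3 FPKM and no call (q = 0.194 in the authors' deposited table).

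The 39 other tested large subunit genes were not called. Closest to the threshold were Mrpl55 (30.2 and 26.3 FPKM, q = 0.140), Mrpl41 (58.4 and 52.7 FPKM, q = 0.144) and Mrpl22 (85.6 and 77.4 FPKM, q = 0.156 in the authors' deposited table). All 3 had the lower value with doxycycline. Among the 10 large subunit genes with the higher value there, the largest difference was that of Mrpl23, the counterpart of bacterial L23 at the exit of the peptide tunnel, at 63.7 and 69.4 FPKM (q = 0.415 in the authors' deposited table). Mrpl12, which helps to recruit translation factors, stood at 172 and 166 FPKM (q = 0.670 in the authors' deposited table). Mrpl45, which ties the ribosome to the inner membrane, stood at 87.4 and 85.4 FPKM (q = 0.839 in the authors' deposited table). These last were named after their values were seen. Mrpl47, also named so, had a larger log2 fold change (-0.24) than 3 of the 4 called genes, at 73.5 and 62.3 FPKM, but q = 0.515 in the authors' deposited table, and it shares its locus with Actl6a and Ndufb5. Mrpl2, at 79.5 and 74.1 FPKM, had status FAIL and no test.

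Of the 26 small subunit genes, all tested, 3 fell (11.5%). Mrps18c went from 110 FPKM without doxycycline to 85.9 FPKM with it, the largest fall of the 69 genes (1.28-fold lower, log2 fold change -0.36, q = 2.37e-05 in the authors' deposited table; chromosome 5, 101227646 to 101233490). Mrps28, the counterpart of bacterial S1, went from 77.9 to 68.2 FPKM (1.14-fold lower, q = 0.0272 in the authors' deposited table; chromosome 3, 8802146 to 8923918). That locus also holds 2 predicted genes, Gm15466 and Gm15467, with at most 1.36 FPKM and no call. Mrps2, the counterpart of bacterial S2, went from 31.9 to 28.1 FPKM (1.13-fold lower, q = 0.0416 in the authors' deposited table; chromosome 2, 28323586 to 28326698).

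Mammals have 3 genes related to bacterial S18, and 1 of them was called, where 23.2% of all tested rows were. Mrps18c fell as given above. Mrps18b stood at 91.3 and 80.8 FPKM without and with doxycycline (log2 fold change -0.18, q = 0.125), and Mrps18a at 46.6 and 47.0 FPKM (log2 fold change 0.01, q = 0.966 in the authors' deposited table). The locus of Mrps18b also holds 2310061I04Rik, which rose from 20.4 to 26.1 FPKM (q = 0.0394 in the authors' deposited table). Atat1 and Gm16279, at the same locus, were not called. That of Mrps18a also holds Rsph9, with at most 0.389 FPKM and no call. Structures of the ribosome place the product of Mrps18a in the large subunit despite its name, as they do that of Mrps30 (43.3 and 45.5 FPKM, q = 0.534 in the authors' deposited table). The differences between the changes of the 3 genes related to S18 were not tested, since values per library were not analysed here.

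The 23 other small subunit genes were not called. Mrps22 (38.8 and 34.3 FPKM, q = 0.0522) and Mrps36 (37.3 and 31.5 FPKM, q = 0.0555 in the authors' deposited table) lay just outside the threshold. Mrps36 had a larger log2 fold change, -0.24, than the called genes Mrps2 and Mrps28. Its product has since been assigned to the 2-oxoglutarate dehydrogenase complex rather than to the ribosome. Mrps12, the counterpart of the bacterial decoding protein S12, stood at 52.3 and 49.1 FPKM (q = 0.585 in the authors' deposited table), and Mrps7 at 37.6 and 36.7 FPKM (q = 0.926 in the authors' deposited table), both named after their values were seen.

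**Figure D2:**
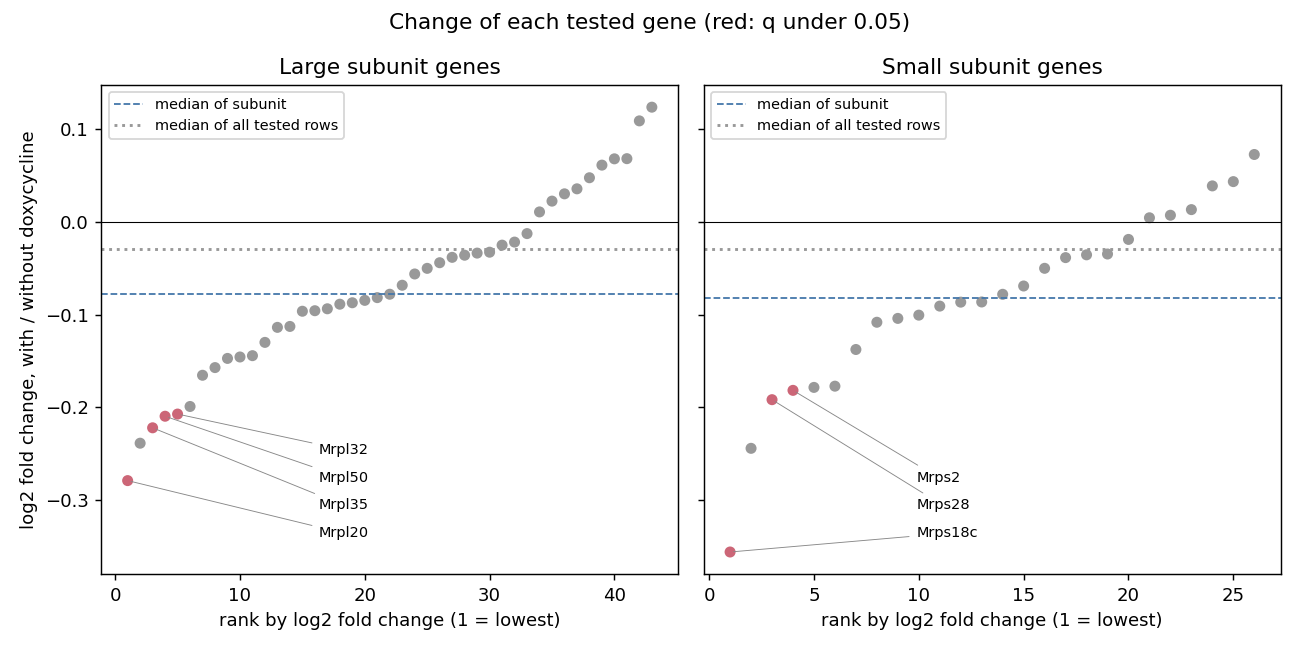
Log2 fold change (with over without doxycycline) of the 43 tested large subunit genes (left) and the 26 small subunit genes (right), ordered by size, with the 7 genes of q under 0.05 in red and named. The dashed line is the subunit's median (-0.08 in both) and the dotted line the median of all tested rows (-0.03); most points lie below 0.

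Most genes of both subunits had slightly lower values with doxycycline, and the difference between the subunits was not tested. The median log2 fold change was -0.08 for the large subunit (1.06-fold lower) and -0.08 for the small subunit (1.06-fold lower), against -0.03 over all tested rows and -0.07 over the tested rows in the same level range. The value with doxycycline was the lower one for 33 of 43 large subunit genes (76.7%) and 20 of 26 small subunit genes (76.9%). The same held for 54.2% of all tested rows with a fold and for 67.8% of those in the level range. Rows of this abundance thus had lower values more often than the table as a whole. The summed level of the tested genes was 3588 and 3411 FPKM for the large subunit and 1655 and 1561 FPKM for the small subunit, without and with doxycycline. The middle 50% of the log2 fold changes lay between -0.14 and -0.02 for the 69 genes, and between -0.17 and 0.04 for the rows in the level range.

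**Figure D3:**
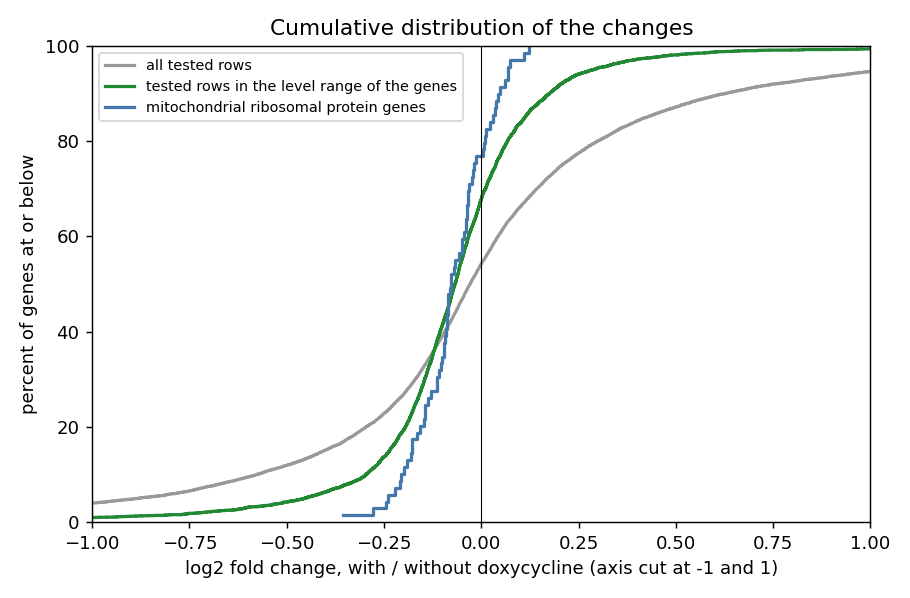
Percent of genes at or below each log2 fold change (with over without doxycycline), for the 69 tested mitochondrial ribosomal protein genes (blue), the 4111 tested rows in their level range (green) and all tested rows with a fold (grey), between -1 and 1. The blue curve is the steepest and crosses 0 at 76.8%, against 67.8% for the green and 54.2% for the grey curve.

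Falls were found among proteins with and without bacterial counterparts. Of the tested large subunit proteins with a counterpart, 3 of 28 fell (10.7%). Of those classed as found in mitochondria only, 1 of 17 fell (5.88%), Mrps30 and Mrps18a included. In the small subunit these counts were 3 of 14 (21.4%) and 0 of 9 (0%), and Mrps36 was in neither class. Of all tested rows 12.7% fell, and of those in the level range 18.2%. Mrps18a and Mrps18b are related to bacterial S18 but were counted here among proteins found in mitochondria only. The median log2 fold changes of the 4 classes were -0.05, -0.08, -0.09 and -0.04 in that order. With counts this small, the classes are described and not compared.

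The genes were spread over 17 chromosomes, with at most 9 on one, chromosome 11, where none was called. Chromosome 17 held 7 (6 tested, none called), and chromosome 4 held 4, of which Mrpl20 and Mrpl50 fell. Chromosomes 2, 3, 5, 6 and 13 each held 1 gene that fell. Of all tested rows 12.7% fell, and shares of all rows by chromosome were not computed. Mrpl46 and Mrps11 share a locus, chromosome 7, 85920122 to 85937875, and so bring together a gene of each subunit. Mrpl46 stood at 46.6 and 43.1 FPKM (q = 0.428) and Mrps11 at 48.5 and 46.0 FPKM (q = 0.718 in the authors' deposited table). In all, 26 of the 70 genes shared a locus with another row, and reads of overlapping genes may not be separable because no strand marking is mentioned. Of the 44 that shared none, 6 fell (13.6%, against 14.8% of all such rows), and no gene rose (12.3%).

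Other thresholds gave the following background. At q under 0.01, 4 genes fell (Mrpl20, Mrpl35, Mrpl50 and Mrps18c), where 9.39% of tested rows fell and 7.71% rose. At an unadjusted p under 0.05, 13 genes had lower values and none a higher one, against 17.3% and 13.8% of tested rows. The 6 that this added were Mrpl22, Mrpl41, Mrpl55, Mrps18b, Mrps22 and Mrps36. With a minimum fold of 1.5, none was called, against 5.21% lower and 6.02% higher of the tested rows. All 69 genes were above 1 FPKM, and among tested rows at that level 16.8% fell and 11.5% rose.

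Some proteins of the ribosome lie outside the rule because their row names another gene too. There were 6 such rows, all tested. The row of Mrps6 and Slc5a3, a myo-inositol transporter gene, rose from 36.4 to 60.9 FPKM (1.67-fold; the authors' deposited table lists its q as 0). Next, the row of Mrps34 and Nme3 fell from 130 to 95.7 FPKM (1.36-fold, q = 4.87e-05 in the authors' deposited table). These were the only calls among the 6, where 10.5% of all tested rows rose and 12.7% fell. Both changes were larger than any of the 69 genes with rows of their own. A single value per row does not show which of the named genes changed. The rows with Mrps24 (87.3 and 78.0 FPKM), Mrpl33 (206 and 204 FPKM), Mrpl53 (66.8 and 65.5 FPKM) and Mrpl48 (55.2 and 59.9 FPKM) were not called.

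Another 7 proteins of the ribosome carry other symbols, and 1 of them fell (14.3%, against 12.7% of all tested rows). Dap3, a GTP-binding protein of the small subunit, went from 90.6 to 71.1 FPKM (1.28-fold lower, q = 0.0196 in the authors' deposited table). Not called were Chchd1 (268 and 240 FPKM, q = 0.0562), Aurkaip1 (187 and 169 FPKM), Ict1 (79.9 and 73.5 FPKM), Ptcd3 (67.1 and 66.7 FPKM), Mrp63 (8.45 and 9.13 FPKM) and Gadd45gip1 (7.49 and 7.93 FPKM in the authors' deposited table). Of the 4 pseudogenes named after the family, Mrps36-ps2 was not tested and the others were not called, where 23.2% of all tested rows were. Mrpl48-ps was the highest of the 4 at 7.02 and 7.18 FPKM.

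Genes that build and serve the mitochondrial ribosome were read against the same background, 23.2% of tested rows called at q under 0.05 and 31.2% at an unadjusted p under 0.05. Of 20 tested assembly factors, none was called by Cuffdiff at q under 0.05 in the authors' deposited table, and 5 had an unadjusted p under 0.05. Of 15 tested translation factors, only Tufm fell, the elongation factor that brings charged tRNA to the ribosome, from 58.2 to 49.6 FPKM (1.17-fold, q = 0.00235 in the authors' deposited table). Of 17 mitochondrial aminoacyl-tRNA synthetases, only the cysteine enzyme gene Cars2 fell, from 14.0 to 11.7 FPKM (1.20-fold, q = 0.0405 in the authors' deposited table). Among 16 genes for upkeep and transcription of mitochondrial DNA and its regulators, none was called by Cuffdiff in the authors' deposited table, and 2 had an unadjusted p under 0.05. Tfam, the main packaging factor of mitochondrial DNA, named after its values were seen, stood at 84.5 and 84.2 FPKM. Medians of these 4 lists lay between -0.033 and -0.0039 on the log2 scale.

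Messenger RNAs that the mitochondrial ribosome translates could not be followed. All 13 protein genes of mitochondrial DNA lay in rows with status HIDATA, which marks too many fragments, and were listed at 0 in both groups. These zeros are failed estimates and not levels.

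Cytosolic ribosomal protein genes were examined beside them as the other ribosome of the cell. Tests existed for 65 of 80 rows, of which 2 rose (3.08%, against 10.5% of all tested rows) and 1 fell (1.54%, against 12.7%) in the authors' deposited table. All of the 15 untested rows but Rpl7l1 had status HIDATA, among them Rpl3, Rpl4, Rps2 and Rps3. They were listed at 0 in both groups, except Rps7, listed at 2447 FPKM without doxycycline and 0 with it. The shares and medians given here therefore cover the tested rows only. Their median log2 fold change was 0.01, and the value with doxycycline was lower in 29 of 65 (44.6%, against 54.2% of all tested rows with a fold). Rpl10l rose 1.33-fold, from 17.1 to 22.8 FPKM, and Rpl39l 1.18-fold, from 48.1 to 56.7 FPKM. Both are paralogs that copy a widely used ribosomal gene, so their reads may be shared with it. Rps15a fell from 4653 to 3772 FPKM (1.23-fold, q = 0.0490 in the authors' deposited table). The cytosolic genes were far more abundant, with a median of 2251 FPKM without doxycycline, and the difference between both ribosomes was not tested.

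Genes of mitochondrial stress and the integrated stress response moved in both directions. By the authors' deposited table, rises numbered 7 of 26 and falls 3 (38.5% called, beside the 23.2% of all tested rows), with a median of 0.01 on the log2 scale. The largest rises were those of Asns, asparagine synthetase, from 51.9 to 78.9 FPKM (1.52-fold), and Sesn2, from 23.7 to 35.3 FPKM (1.49-fold). Phgdh (1.32-fold) and Psat1 (1.30-fold), enzymes of serine synthesis, rose too, as did Chac1 (1.26-fold), the protease gene Oma1 (1.22-fold) and Shmt2 (1.16-fold). Among falls, Pck2 went from 18.1 to 13.9 FPKM (1.30-fold) and the inner membrane protease gene Yme1l1 from 55.3 to 47.9 FPKM (1.16-fold). The third was the matrix protease gene Lonp1, from 54.9 to 48.8 FPKM (1.13-fold, q = 0.0319 in the authors' deposited table). Shmt2, Lonp1 and the uncalled genes that follow were named after their values were seen. The mitochondrial chaperone genes Hspd1 (450 and 400 FPKM), Hspe1 (1059 and 1001 FPKM) and Hspa9 (204 FPKM in both groups) were not called, nor were the transcription factor genes Atf4 (129 and 117 FPKM), Atf5 (8.79 and 8.94 FPKM) and Ddit3 (7.71 and 8.23 FPKM).

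**Figure D4:**
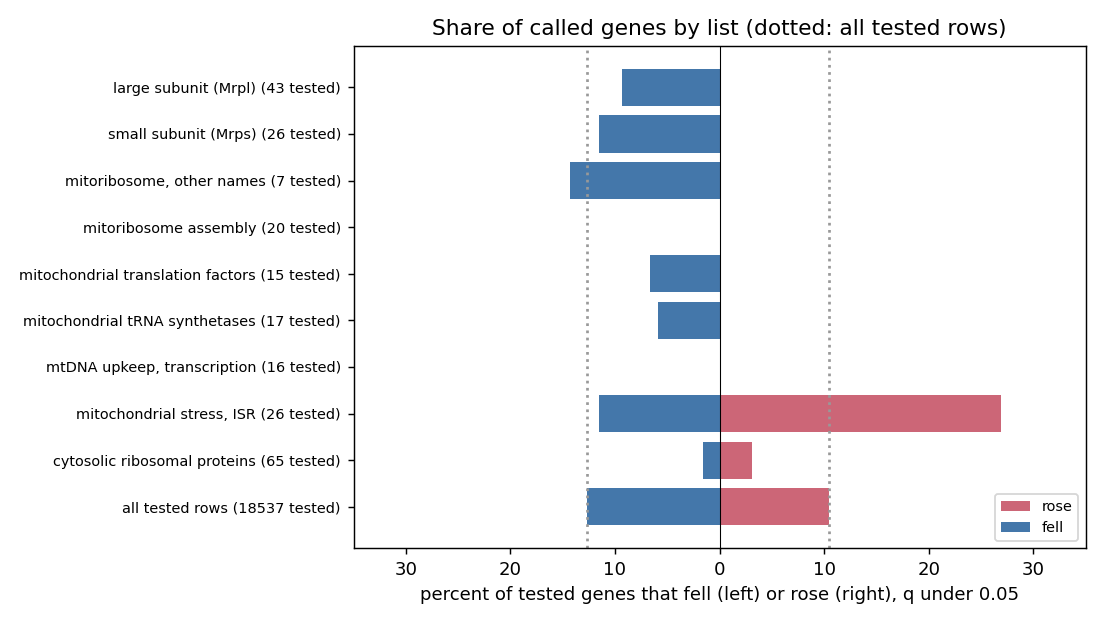
Percent of tested genes that fell (blue, left) or rose (red, right) at q under 0.05 in the authors' deposited table, for both ribosomal subunits and the related lists, with the number tested beside each name. Dotted lines mark all tested rows (12.7% fell, 10.5% rose); the ribosomal subunits have bars on the left only.

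Promoter windows from RefSeq were found for 62 of the 70 genes. Mrpl4, Mrpl13, Mrpl15, Mrpl19, Mrpl38, Mrpl54, Mrps28 and Mrps35 had none. Shares of genes count a match in any window of a gene, whereas shares of windows count each window. The 62 genes had 65 windows. Windows per tested gene were not counted, and a gene with more windows has more chances of a match. The ETS core stood in the windows of 35 of the 62 genes (56.5%), against 27.3% of tested genes and 14.9% of all 32851 windows of this length. Counted in the first listed window of each gene, 31 of its 48 matches began within the last 50 bases before the start or after it. The YY1 piece stood in 11 of 62 (17.7%), against 4.44% of tested genes and 2.75% of all windows, with a median position 14 bases after the start in the first listed windows. The NRF1 piece stood in 7 of 62 (11.3%, against 5.39% of tested genes and 2.71% of all windows).

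The GC box stood in 30 of 62 genes (48.4%), fewer than the 65.7% of tested genes and more than the 35.7% of all windows. A TATA box was found in 3 of 62 (4.84%, against 9.19% and 13.6%). Of the 6 genes that fell and had a window, 2 held a GC box (Mrps18c and Mrpl32), as did 28 of the 56 other genes. The ETS core was in 3 of these 6 (Mrps18c, Mrpl32 and Mrpl50) and in 32 of the 56. Of the windows printed above, those of 3 genes that fell differ. Mrps18c has 1 GC box and 2 ETS cores. Mrpl32 has 1 GC box, 1 ETS core, 4 NRF1 pieces and 1 YY1 piece, and Mrpl20 has none of the 5 letter strings. Mrpl42, which was not called, has a GC box and a YY1 piece. Whether these cells use the listed starts was not tested. These counts describe letters in windows and say nothing of what was bound.

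**Figure D5:**
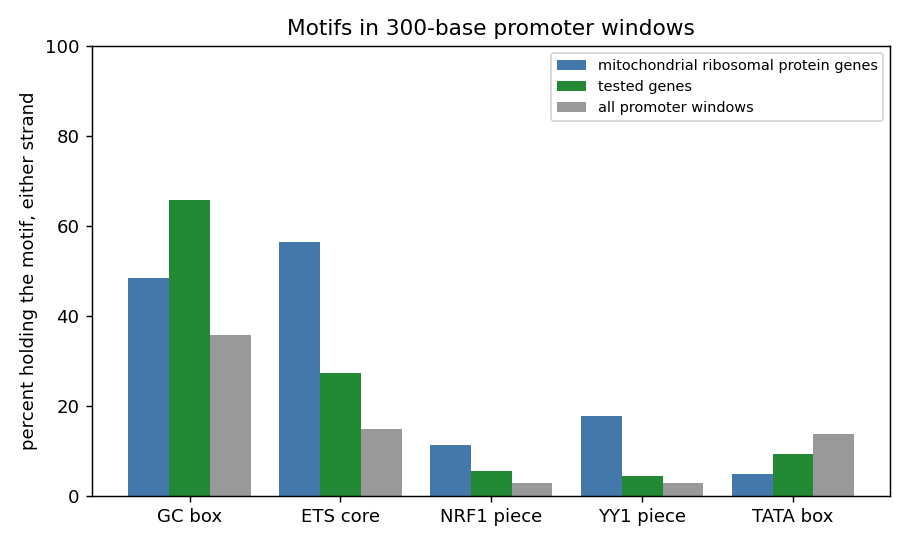
Percent of genes or windows that hold each motif on either strand within 300 bases around the start, for 62 mitochondrial ribosomal protein genes (blue), 10638 tested genes (green) and all 32851 windows (grey). The ETS core is at 56.5% in the ribosomal genes and 27.3% in tested genes, and the GC box at 48.4% and 65.7%.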

How the data were processed

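Poly(A)-selected RNA of 6 libraries in 2 groups of 3 was sequenced from TruSeq libraries, per the labels' protocols. Build mm9 and the tools Cuffdiff, Cufflinks 2.0.2, TopHat2 2.0.8, Picard and Bowtie are named, per the submitters' processing notes. For annotation, scaling and filters, details were not given in the sources used here. The authors deposited 1 FPKM value for each group, with the p-values and q-values of their Cuffdiff test, per the file headers. The deposited log2 fold changes equalled the log2 ratio of the group values to within 1.31e-05. The depth is unknown, so no counting interval or floor can be given.

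A call was status OK with q under 0.05 over all 18537 tested rows. This equalled the authors' own mark in every row, and Benjamini-Hochberg adjustment of the p-values gave the q-values to within 1.79e-06. Fold changes are ratios of the group values without a pseudocount. The counting was tested on simulated data (Python 3.11.15, numpy 2.4.6, pandas 2.3.3, matplotlib 3.10.9). Starts were read as 0-based and are written from 1, because 10176 of 18344 spans then equalled GENCODE vM21 lengths, against 287 otherwise. Promoter windows are of another build, GRCm38.p6, and were matched by symbol. Where a gene had several windows, a match in any counted.

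The genes, lists and alternatives were chosen with earlier results of these data known; the level range and the motifs were added after the table was read. Named genes were those called, the 3 highest, 3 lowest and 3 closest to the threshold in each subunit, the untested gene, the Mrps18 family, and up to 8 called genes of each other list by size; others are said to be named after their values were seen. Sp5, the stem cell and fibroblast markers and the uncalled list genes served as checks or context.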

Additional observations from a re-analysis of the deposited data

How the results depend on the processing

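No gene of either subunit was called higher at q under 0.05 or 0.01, at an unadjusted p under 0.05, with a minimum fold of 1.5 or of 1 FPKM, or without rows sharing a locus. With the rows that name another gene counted too, an alternative chosen after seeing the data, 1 small subunit row was higher (Mrps6 with Slc5a3). The 4 large subunit genes called lower became 7 at an unadjusted p under 0.05, and the 3 of the small subunit became 6. With a minimum fold of 1.5 both counts were 0, and at q under 0.01 the small subunit count was 1. The other settings moved neither count of falls by more than 1.5 times. The large subunit median of -0.078 (log2) was -0.049 when centred on all tested rows, -0.068 with Mrps30 and Mrps18a included, and -0.062 with the shared rows. The small subunit median of -0.082 was -0.053 when centred, -0.086 without rows at shared loci, -0.086 without Mrps30 and Mrps18a, and -0.086 with the shared rows. Pseudocounts of 1 and 0.1 FPKM moved neither at 2 decimals. Leaving out a library was not run, because the file gives group values only. No paired analysis was possible because each group has a single value. The sample titles number the replicates 2, 3 and 4 without doxycycline and 1, 3 and 4 with it. Whether equal numbers mark pairs is not labelled.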

Other observations

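The tested row of 4 mitochondrial tRNA genes (mt-Ta, mt-Tc, mt-Tn and mt-Ty, mitochondrial positions 5018 to 5326 in the table) went from 395 FPKM without doxycycline to 181 FPKM with it, a 2.18-fold fall (the authors' deposited table lists its q as 0). It was the only tested row of mitochondrial DNA and was noticed after its values were seen. Single tRNAs are short and the libraries were captured by poly(A), so FPKM of such a row rests on few positions, and the neighbouring rows were listed at 0 as failed estimates.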
